A study of Mus musculus with 4 samples.

Results

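Leukocyte chemokine receptors were read here as the 7 probe sets that the platform annotation assigns to exactly 1 of the symbols Ccr1, Ccr2, Ccr7, Ccr9, Cxcr2, Cx3cr1 and Xcr1, out of 30142 gene symbols with a transcript cluster of their own. The array holds 30604 such clusters, called named clusters below. Each receptor had 1 such probe set, whose identifier carries the chromosome on which RefSeq lists the gene. The members were chosen by symbol, but with the difference between the 2 cell fractions in these arrays already known, so that difference is given below as a description without a test. The study measured total RNA of macrophages sorted from the liver of male C57BL/6J mice with a disease model labelled CRCLM, in a series on VEGFC and colorectal cancer spread in the liver. The mice had been given an antibody against the chemokine CCL3 or, as control, an isotype control antibody, and these groups, called treated and control mice below, had 2 arrays each. The arrays of a group were a fraction named F4/80 CD11b m and a fraction named F4/80 CD11b p, after 2 surface proteins of macrophages and myeloid cells. The labels call both fractions macrophages and do not spell out the letters, so whether m and p name cells without and with these proteins is not known here, and they give neither the age of the mice nor how many were pooled nor which cells were injected. Antibody and fraction combine into 4 conditions of 1 array each, so a single condition has no replicate error. The labels do not tie the arrays to separate animals, and the p-values below measure only the spread left among these 4 arrays.

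Chemokine receptors are proteins with a chain that crosses the membrane repeatedly and that signal through inhibitory G proteins when a chemokine binds, which turns the cell towards the source of the chemokine. Ccr1 and Ccr2 encode receptors for inflammatory chemokines of the CC class: CCR1 binds CCL3, the target of the antibody, and CCR2 binds CCL2 and draws monocytes out of the bone marrow into the inflamed or tumour-bearing liver. Cxcr2 encodes the main chemoattractant receptor of neutrophils, and Cx3cr1 the fractalkine receptor of patrolling monocytes and many tissue macrophages. Ccr7 guides mature dendritic cells and naive T cells to lymph nodes, Ccr9 marks gut-homing T cells and plasmacytoid dendritic cells, and Xcr1 marks the dendritic cells that present antigen to cytotoxic T cells.

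The stretches directly before the transcription start were taken from RefSeq's gene models on GRCm38.p6, which held such a stretch for 6 of the 7 receptors, all but Ccr7. Those of Ccr1, Ccr2 and Cxcr2 are shown, because Ccr1 encodes a receptor of the antibody's target, Ccr2 was the receptor whose fraction difference changed sign between antibody groups, and Cxcr2 was the receptor whose differences were most alike in both pairs of arrays. Each is the 250 bases before the start, 5′ to 3′ on the gene's own strand, and capitals mark the letters GAGGAA, the core of the sites bound by PU.1, a transcription factor of myeloid cells, or their reverse complement TTCCTC.
Ccr1, chr9:123968693-123968942, minus strand: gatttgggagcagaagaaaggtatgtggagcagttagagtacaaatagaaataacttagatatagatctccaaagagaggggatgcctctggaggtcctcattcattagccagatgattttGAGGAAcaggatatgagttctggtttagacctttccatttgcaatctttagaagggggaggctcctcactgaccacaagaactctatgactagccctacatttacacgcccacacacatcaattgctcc
Cxcr2, chr1:74153744-74153993, plus strand: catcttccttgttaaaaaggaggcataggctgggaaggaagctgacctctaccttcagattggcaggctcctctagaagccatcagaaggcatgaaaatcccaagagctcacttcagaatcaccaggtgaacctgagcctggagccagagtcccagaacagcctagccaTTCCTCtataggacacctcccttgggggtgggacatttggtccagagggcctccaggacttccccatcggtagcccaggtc
Ccr2, chr9:124101933-124102182, plus strand: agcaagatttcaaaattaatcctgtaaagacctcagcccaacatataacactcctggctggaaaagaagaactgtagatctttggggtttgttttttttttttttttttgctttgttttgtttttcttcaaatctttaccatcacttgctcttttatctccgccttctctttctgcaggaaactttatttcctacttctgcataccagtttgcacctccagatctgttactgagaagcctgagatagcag

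On either strand these letters occurred in the stretches of Ccr1 and Cxcr2, 2 of 6 receptors, and in 23.3% of all 32851 stretches of this length in the table. The letters TATAAA, a core promoter element, or their reverse complement TTTATA occurred in 1 of the 6, Xcr1, and in 12.4% of all stretches. The 2 motifs were searched separately and do not overlap in any of the 6. A match is a description of letters and says nothing about binding in these cells.

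All 7 receptors had signals inside the distribution of 5222 probe sets whose identifiers name them negative controls. What these are directed against is not stated in the files used here, so they serve as a range of signal and not as a measured background. Negative controls had a median of 6.34 on the log2 scale, an interquartile range from 5.27 to 7.84 and a 95th percentile of 11.6 over the mean of 4 arrays. All 30604 named clusters had a median of 6.16, and the 1324 probe sets named positive controls had 5.72, below the negative controls. The 23 probe sets named background ran from 2.71 to 5.96. Whether the deposited values carry the transcript levels of these cells could not be settled from them, and every value below is subject to this. Probe sets bind with different strength, so each receptor is set against the negative controls and not against another receptor. In bulk RNA of a sorted fraction, fewer cells that carry a receptor and less of its RNA per cell cannot be told apart.

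**Figure D1:**
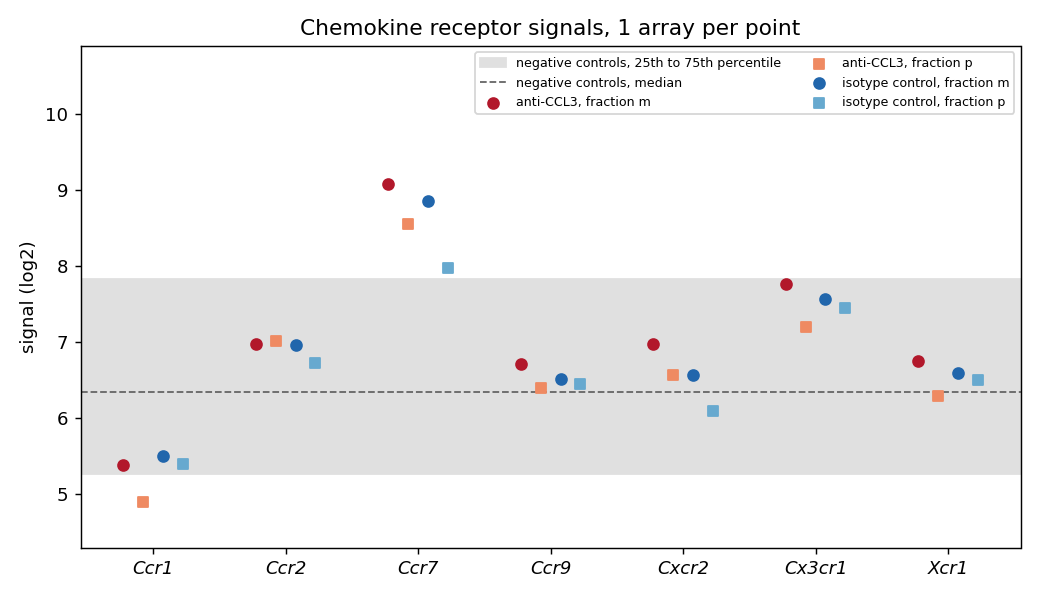
Signal (log2) of each receptor's probe set on the 4 arrays, 1 point per array, with the median (dashed line) and interquartile range (grey) of the negative controls over the mean of 4 arrays. All points of Ccr2, Ccr9, Cxcr2, Cx3cr1 and Xcr1 lie in the grey range, those of Ccr7 above it and 1 point of Ccr1 below it.

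Among the receptors of inflammatory leukocytes, Ccr1 had signals of 5.39 (m) and 4.90 (p) in treated mice and of 5.50 (m) and 5.40 (p) in control mice. These stood between percentiles 21.2 and 32.3 of the negative controls of the same arrays, so every one of its values lay below their median. Ccr2 had signals of 6.98 (m) and 7.02 (p) in treated mice and of 6.97 (m) and 6.73 (p) in control mice. The control array of fraction p was thus the lowest of the 4, and the other 3 lay between 6.97 and 7.02. Cxcr2 had signals of 6.97 (m) and 6.57 (p) in treated mice and of 6.57 (m) and 6.10 (p) in control mice. Its 4 values formed a ladder in which fraction p of treated mice and fraction m of control mice were equal to 2 decimals. Cx3cr1 had signals of 7.77 (m) and 7.21 (p) in treated mice and of 7.58 (m) and 7.45 (p) in control mice, at percentiles 65.4 to 70.8 of the negative controls. Both values of fraction m lay above both values of fraction p.

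Among the receptors of dendritic cells and lymphocytes, Ccr7 had signals of 9.08 (m) and 8.56 (p) in treated mice and of 8.86 (m) and 7.97 (p) in control mice. It had the widest range of the 7 receptors over the 4 arrays, 1.10, and stood at percentiles 75.8 to 82.5 of the negative controls. Ccr9 had signals of 6.72 (m) and 6.40 (p) in treated mice and of 6.52 (m) and 6.46 (p) in control mice. Xcr1 had signals of 6.76 (m) and 6.30 (p) in treated mice and of 6.60 (m) and 6.51 (p) in control mice. In Ccr7, Ccr9 and Xcr1, as in Cx3cr1, fraction m of treated mice was the highest of the 4 arrays. In these receptors both m arrays also stood above both p arrays. Cxcr2 too had its highest value on the array of fraction m of treated mice. How many of the named clusters were highest on this array was not counted. The same array was also the brightest at the upper end of the named clusters, with a 95th percentile of 9.20 against 8.77 (p) in treated mice and 8.81 (m) and 8.49 (p) in control mice, and its part in these values was not tested.

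The comparison of the fractions asks how the cells sorted under these 2 names differ. In fraction p, 6 of the 7 receptors were lower in both antibody groups, all but Ccr2, where 30.9% of the named clusters and 28.1% of the negative controls were lower in both. Both p arrays lay below both m arrays for 4 receptors, Ccr7, Ccr9, Cx3cr1 and Xcr1, against 20.8% of the named clusters and 19.8% of the negative controls. Because these receptors were proposed with this contrast in view, nothing is read from either count. The median difference of the 7 receptors, p minus m as the mean of both antibody groups, was -0.29 on the log2 scale, beside -0.02 for all named clusters and -0.03 for the negative controls. From 1 antibody group alone it was -0.46 in treated mice and -0.12 in control mice. Under quantile, median and cyclic loess scaling the same 6 receptors stayed lower in fraction p in both antibody groups, and 26.0% to 27.8% of the named clusters did so.

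Ccr7 had the most negative fraction difference, -0.71, with -0.52 in treated mice and -0.89 in control mice. It became -0.47 under quantile scaling and -0.49 under cyclic loess scaling. Of the named clusters 4.04% had a more negative mean difference, and of the negative controls 24.0%. Cxcr2 followed at -0.44, with -0.41 and -0.47, which were the most similar values in both antibody groups among the 7 receptors. Of the negative controls, 32.7% had a more negative mean difference than Cxcr2.

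In 4 receptors the fraction difference was more negative in treated mice than in control mice. The share of named clusters with this pattern was not counted, so nothing is read from this count. The median difference of all named clusters was -0.033 in treated mice and -0.003 in control mice. Cx3cr1 was at -0.56 in treated mice and at -0.12 in control mice, and its mean of -0.34 became -0.21 under quantile scaling and -0.24 under cyclic loess scaling. Ccr1 was at -0.49 and -0.10, Xcr1 at -0.46 and -0.09, and Ccr9 at -0.31 and -0.07. In control mice these 4 differences lay at percentiles 30.4 to 38.9 of the named clusters, and in treated mice at percentiles 8.02 to 16.7. Each difference comes from 1 array on each side, and whether it depends on the antibody could not be tested with 1 array per combination. Ccr2 stood apart from the other receptors, with 0.04 in treated mice and -0.24 in control mice, so its mean of -0.10 is the average of 2 values of opposite sign.

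**Figure D2:**
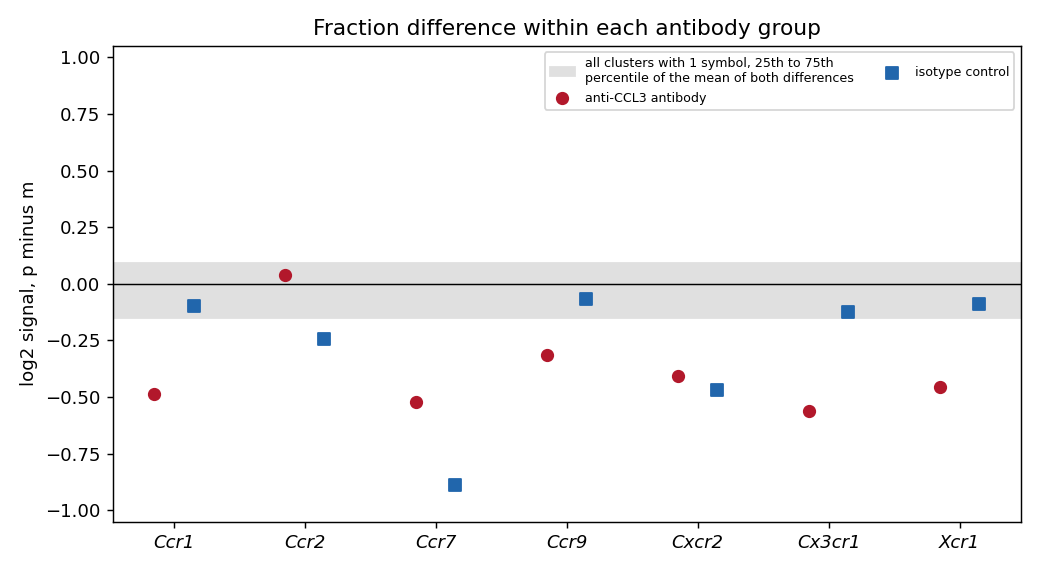
Difference in log2 signal, fraction p minus fraction m, of each receptor in treated mice (circles) and in control mice (squares), 1 array on each side. The grey band is the interquartile range of all named clusters, -0.15 to 0.09, for the mean of both differences. All points but that of Ccr2 in treated mice lie below 0, and the circles of Ccr1, Ccr9, Cx3cr1 and Xcr1 lie below their squares.

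Ccr9, Xcr1, Ccr1 and Ccr2 lie in 1 stretch of mouse chromosome 9, which RefSeq's gene table orders as Ccr9, Fyco1, Cxcr6, Xcr1, Ccr1, Ccr1l1, Ccr3 and Ccr2 among protein-coding genes. The genes between the members were looked at after the members' values had been seen. Cxcr6, a receptor of resident T and NK cells, had p minus m differences of 0.49 in treated mice and 0.05 in control mice. Ccr3, the eosinophil eotaxin receptor, had 0.20 and 0.35. Both were therefore higher in fraction p in both antibody groups, opposite to Ccr9, Xcr1 and Ccr1. Ccr1l1, a close relative of Ccr1, had 0.23 and -0.39. Ccr1 and Ccr1l1 have similar sequences, and how the array's probes separate them was not examined.

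The antibody comparison asks how blocking CCL3 shows in the receptors of the cells it attracts, and this contrast is tested. No receptor passed limma's test for antibody with Benjamini-Hochberg adjustment over all 30604 named clusters, with an adjusted p of 0.676 or more. The test called 0% of the named clusters, 0 of 30604, with 0.511 the smallest adjusted p, and 2069 clusters lay at an unadjusted p below 0.05. Misses therefore do not show that a receptor was alike in both antibody groups. The median difference of the 7 receptors was 0.07 on the log2 scale, beside 0.02 for all named clusters.

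Ccr1, a receptor of the chemokine that was blocked, was lower under anti-CCL3 in both fractions, with differences of -0.11 (m) and -0.50 (p). The fitted difference was -0.31 ± 0.15 (SE, 4 arrays), with an adjusted p of 0.819 in limma's test. It was the 1 receptor of 7 that was lower in both fractions, where 21.5% of the named clusters were. It was also the 1 receptor whose anti-CCL3 arrays both lay below both isotype control arrays, as in 13% of the named clusters, by 5.39 against 5.40 at the closest. All values of Ccr1 lay below the median of the negative controls.

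Ccr2, Ccr7 and Cxcr2, 3 of the 7 receptors, were higher under anti-CCL3 in both fractions, where 30.2% of the named clusters were. Cxcr2 was higher by 0.41 in fraction m and by 0.47 in fraction p, with a fitted difference of 0.44 ± 0.10 (SE, 4 arrays) and an adjusted p of 0.676 in limma's test. Its unadjusted p of 0.0251 in limma's test fell among the 4.96% of named clusters that were higher with an unadjusted p below 0.05. Under quantile, median and cyclic loess scaling its difference was 0.40, 0.42 and 0.41. Ccr7 was higher by 0.22 in fraction m and by 0.58 in fraction p, with a fitted difference of 0.40 ± 0.15 (SE, 4 arrays) and an adjusted p of 0.761 in limma's test. This became 0.17 under quantile scaling and 0.19 under cyclic loess scaling, where the difference in fraction m turned to -0.06 and -0.02. Ccr2 had differences of 0.01 (m) and 0.29 (p), with a fitted difference of 0.15 ± 0.13 (SE, 4 arrays). In fraction m its sign turned under quantile, median and cyclic loess scaling, at -0.07, -0.02 and -0.06. Ccr2 was the 1 receptor whose anti-CCL3 arrays both lay above both isotype control arrays, as in 18.8% of the named clusters.

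Ccr9, Cx3cr1 and Xcr1 were higher under anti-CCL3 in fraction m and lower in fraction p, a pattern that 27.3% of the named clusters had. This and their more negative fraction difference in treated mice are 1 contrast of the same 4 arrays and not 2 observations. Cx3cr1 had differences of 0.19 (m) and -0.24 (p), Xcr1 at 0.16 and -0.21, and Ccr9 at 0.20 and -0.05. Fitted over both fractions, these differences came to -0.02 ± 0.16 for Cx3cr1, -0.03 ± 0.15 for Xcr1 and 0.07 ± 0.12 for Ccr9 (SE, 4 arrays each).

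**Figure D3:**
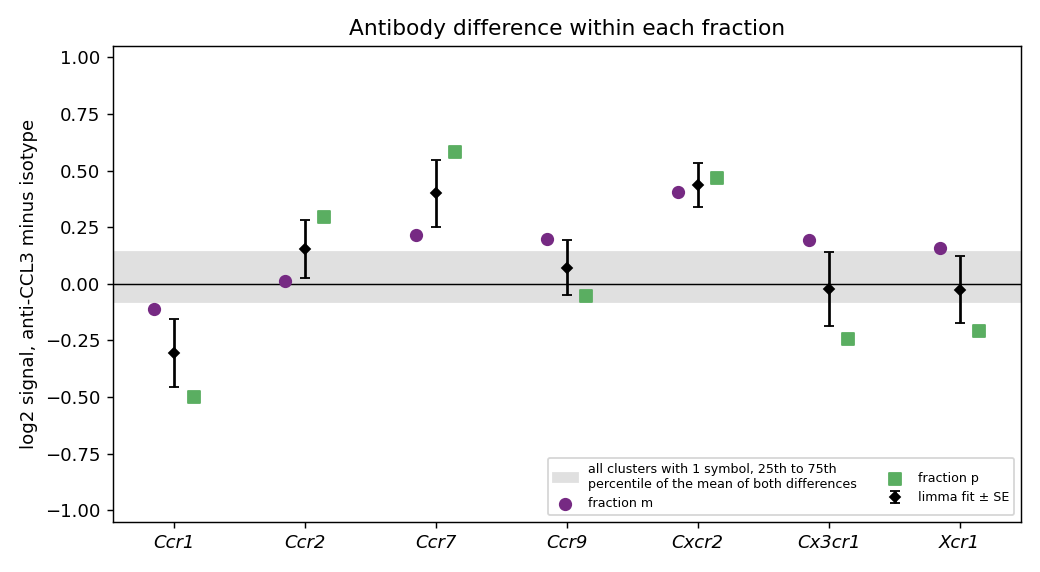
Difference in log2 signal, anti-CCL3 minus isotype control, of each receptor in fraction m (circles) and fraction p (squares), with limma's fitted difference and its SE over 4 arrays (diamonds). The grey band is the interquartile range of all named clusters, -0.08 to 0.14, for the mean of both differences. Cxcr2 has 2 values close together at 0.41 and 0.47, while Ccr9, Cx3cr1 and Xcr1 have a value on each side of 0.

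Of 16 further chemokine receptors and scavenging receptors listed, 13 had a cluster of their own. Of these, 6 were lower and 4 higher in fraction p in both antibody groups, beside 30.9% lower and 23.3% higher among all named clusters (24% higher among the negative controls), and 3 had opposite signs, with a median fraction difference of -0.10. Cxcr1, the partner of Cxcr2 on neutrophils, had the most negative mean, -1.17, with -1.59 in treated mice and -0.74 in control mice. Its signals were 6.51 (m) and 4.92 (p) in treated mice and 5.61 (m) and 4.87 (p) in control mice, so fraction m of treated mice stood above the other 3 arrays. Ccr8, a receptor of regulatory T cells and some macrophages, was highest at 0.57, with 0.69 and 0.46. For antibody, 3 of the 13 were higher and 3 lower in both fractions, beside 30.2% and 21.5% of the named clusters. Of the 13, 0 passed limma's test, with 0.687 the smallest Benjamini-Hochberg adjusted p. Ccr8 was at 0.50 and the scavenging receptor gene Ackr4 at -0.37, the highest and lowest of this list.

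Of 16 ligands of the 7 receptors, 15 had a cluster of their own, with a median fraction difference of -0.04. Of these, 3 were lower and 3 higher in fraction p in both antibody groups, beside 30.9% and 23.3% of the named clusters. Ccl19, a ligand of CCR7, was lowest at -0.49, with -0.61 in treated mice and -0.36 in control mice, the direction also seen in Ccr7. Xcl1, the ligand of XCR1, was highest at 0.57, with 0.96 and 0.18, opposite in sign to Xcr1. Ccl3 itself had signals of 7.80 (m) and 7.64 (p) in treated mice and of 7.99 (m) and 7.44 (p) in control mice. For antibody, 0 of the 15 ligands were higher and 3 lower in both fractions, beside 30.2% and 21.5% of the named clusters. Of the ligands, 0 passed limma's test, with 0.812 the smallest Benjamini-Hochberg adjusted p. Cxcl5, a ligand of CXCR2, was highest at 0.29 and Ccl2, a ligand of CCR2, lowest at -0.44. In fractions m and p, Cxcl5 was at 0.59 and -0.02 and Ccl2 at -0.75 and -0.13.

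Of 18 genes that carry or damp the signal of these receptors, 16 had a cluster of their own, with a median fraction difference of -0.03. Of these, 4 were lower and 2 higher in fraction p in both antibody groups, beside 30.9% and 23.3% of the named clusters. Rgs2 and Rgs1, which speed the switching off of G proteins, were the extremes at -0.50 and 0.21. For Rgs2 the difference was -0.45 in treated mice and -0.55 in control mice, and for Rgs1 it was 0.00 and 0.42. For antibody, 5 were higher and 3 lower in both fractions, beside 30.2% and 21.5% of the named clusters. Of the 16, 0 passed limma's test, with 0.827 the smallest Benjamini-Hochberg adjusted p. Gnai2, which encodes the inhibitory G protein subunit that most chemokine receptors use in leukocytes, was highest at 0.27 and Rgs1 lowest at -0.10.

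Markers of the cells that carry each receptor, with the receptors left out, were read on the same arrays, and the counts are of markers with a cluster of their own, to be read against the shares of 30.9% lower and 23.3% higher given above for all named clusters. Of 9 neutrophil markers, 0 were lower and 3 higher in fraction p in both antibody groups, with a mean signal of 6.45 (m) and 6.43 (p) in treated mice and of 6.23 (m) and 6.55 (p) in control mice. S100a8, a subunit of calprotectin, was highest at 0.77 and the cathelicidin gene Camp lowest at -0.12, and 6 of the 9 had opposite signs in the 2 antibody groups. The list's median was 0.02, beside -0.44 for Cxcr2. Of 5 classical monocyte markers, 3 were lower and 1 higher, with a median of -0.18, beside -0.10 for Ccr2. Plac8 was lowest at -0.22 and Vcan, which encodes versican, highest at 0.06. Of 6 nonclassical monocyte markers, 2 were lower and 2 higher, with a median of -0.04, between Spn, the gene of CD43, at -0.18 and Cd300e at 0.08, beside -0.34 for Cx3cr1.

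Of 7 markers of type 1 dendritic cells, 4 were lower and 0 higher in fraction p in both antibody groups, with a median of -0.06, between Clec9a, a receptor for dead cells, at -0.16 and the transcription factor gene Batf3 at 0.09. Their mean signal was 6.24 (m) and 6.23 (p) in treated mice and 6.24 (m) and 6.18 (p) in control mice, and Xcr1 was at -0.27. Of 4 markers of mature dendritic cells, 1 was lower and 3 higher in fraction p in both antibody groups. Their median was 0.09, beside -0.71 for Ccr7, with Ccl22, a chemokine gene, at 0.38 and Socs2, a suppressor of cytokine signalling, at -0.08. Of 5 T cell markers, 1 was lower and 1 higher, with Cd3d, a chain of the T cell receptor complex, at 0.63 and the adaptor gene Lat at -0.30. Of 5 markers of plasmacytoid dendritic cells, 3 were lower and 0 higher, with a median of -0.10. Bst2, an interferon-induced gene, was at -0.44 and Siglech at 0.02, and Ccr9 was at -0.19. The part of these cell types in the receptor values was not tested, and the median level of each of these lists, 5.97 to 6.61, fell between the quartiles of the negative-control signals.

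The sorted cell type itself was read through 7 macrophage markers, of which 2 were lower and 1 higher in fraction p in both antibody groups, with a median of -0.03. Itgam and Adgre1, which encode the CD11b and F4/80 of the fractions' names, had mean signals of 6.26 and 6.43, at percentiles 48.3 and 52.0 of the negative controls. All 7 macrophage markers stood between percentile 27.8, for Csf1r, the receptor of a macrophage growth factor, and 60.6, for Cd68. The 9 Kupffer cell markers stood between 37.4, for Vsig4, and 80.5, for the scavenger receptor gene Marco, with Cd5l at 72.9, and Marco was the 1 gene of both lists above the upper quartile of the negative controls. Of the macrophage markers, Cd68 had the lowest fraction difference at -0.21 and Mertk, a receptor for dying cells, the highest at 0.18. Kupffer cell, NK cell and B cell markers had median fraction differences of -0.08, 0.04 and -0.07, and those of hepatocytes, liver endothelium and epithelium -0.10, -0.04 and 0.05. No member of any of these marker lists passed limma's test for antibody, with 0.676 the smallest Benjamini-Hochberg adjusted p.

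**Figure D4:**
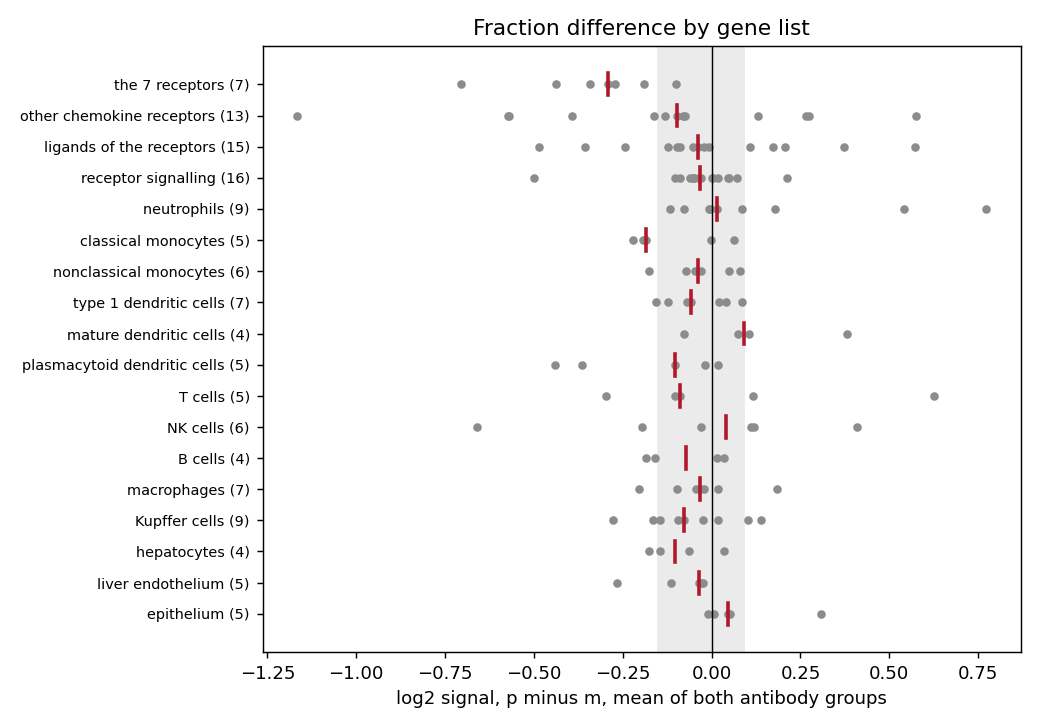
Difference in log2 signal, fraction p minus fraction m as the mean of both antibody groups, for each gene (points) of each list, with the list's median (bar) and the number of genes with a cluster of their own in parentheses. The grey band is the interquartile range of all named clusters, -0.15 to 0.09. The median of the 7 receptors lies at -0.29, the 5 genes of liver endothelium all lie below 0, and each other list has points on both sides of 0.

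The genes whose pattern was most like that of Ccr7, the receptor with the widest range over the arrays, were sought among 17318 named clusters by the root mean square difference of the 4 log2 signals, each gene centred on its own mean. The 3 nearest were Dppa5a, a gene of pluripotent cells, the defensin gene Defa28 and G6pd2, a relative of the glucose-6-phosphate dehydrogenase gene, each at 0.08. Dppa5a had signals of 7.95 (m) and 7.42 (p) in treated mice and of 7.67 (m) and 6.99 (p) in control mice. With 4 arrays many genes share a pattern, and the likeness is a description only.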

How the data were processed

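The authors deposited log2 signals, one for each probe set and array. The submitters' processing notes name RMA, a background correction, normalisation and probe summary, and Affymetrix Expression Console. Their versions and settings are not given. That the signals are on a log2 scale was assumed, because RMA is named. The highest signals were capped at about 19.93, which was also the highest mean over 4 arrays among the negative controls. The source of this cap is not given, and whether the values are RMA output without a further step was not tested. Per the labels' protocols, a WT Pico kit amplified and labelled the RNA. The 4 arrays were used without further normalisation. Of 65956 transcript clusters, 30604 had exactly 1 symbol in the platform annotation (2146 had several and 33206 none listed, and 827 symbols were updated by gene number). limma 3.58.1 in R 4.3.3 fitted antibody and fraction as additive terms to all 30604 clusters without a filter on level, which leaves 1 residual degree of freedom to which the prior added 1.76. Benjamini-Hochberg adjustment was used with a threshold of 0.05. Standard errors are limma's moderated ones, with a median of 0.12, so small errors are set by the prior. Percentiles give the share of negative-control probe sets below a value. Alternatives were other normalisations, a filter on level, 1 cluster per symbol, a fit without fraction and leaving out arrays. On simulated data the fit returned the sizes put in but, with the spread of these arrays, called none of them.

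The receptors and gene lists were chosen with earlier results of these data known. Named genes were all receptors and the highest and lowest of each chemokine list by fraction and by antibody. Further named were the extremes by fraction of the marker lists set beside a receptor, Ccl3, Itgam and Adgre1. So were the 3 genes nearest in pattern to the receptor of widest range. The macrophage list gave its extremes by fraction and by level, and the Kupffer cell list its extremes by level and Cd5l. Ly6c2, S100a8 in its antibody difference, and the genes between members on chromosome 9 were picked after values had been seen. Clusters with several symbols, among them those of Ackr2 and Ackr3, were not used.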

Additional observations from a re-analysis of the deposited data

Results flagged for a closer look

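In 4 receptors a difference had opposite signs in the 2 pairs of arrays, and with 1 array per combination none of these differences between pairs was tested. Cx3cr1 had an antibody difference of 0.194 in fraction m and -0.243 in fraction p on the log2 scale, Xcr1 of 0.159 and -0.21, and Ccr9 of 0.197 and -0.0529. Ccr2 had a fraction difference of 0.0397 in the anti-CCL3 group and -0.242 in the isotype group. The antibody signs of Cx3cr1, Xcr1 and Ccr9 were those of 27.3% of the named clusters. For the fractions, 30.9% of the named clusters were lower and 23.3% higher in fraction p in both antibody groups. Opposite signs are thus common among the named clusters, and nothing is read from this count.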

How the results depend on the processing

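Single receptors' antibody differences were recomputed under other normalisations, the filter at the median level of 6.16, 1 cluster per symbol and no fraction term. Direction and call were kept in 41 of 41. In this balanced layout the filter, 1 cluster per symbol and no fraction term cannot change a difference. Only the normalisations could turn a direction. As 0 clusters were called in any fit, a kept call means only that no receptor gained one. Ccr1 lay below that filter and has no value there. The count of clusters called for antibody was 0 in all 7 fits, with 1911 to 2077 at an unadjusted p below 0.05 over all named clusters, 1244 after the filter and 1384 without the fraction term. Leaving out an array leaves the other pair and no residual degrees of freedom, so it gives values and no test. The antibody difference then ran from -0.053 to 0.20 for Ccr9, from -0.24 to 0.19 for Cx3cr1 and from -0.21 to 0.16 for Xcr1, and the median over the receptors from -0.053 to 0.19. The fraction difference of Ccr2 ran from -0.24 to 0.040, and the median over the receptors from -0.46 to -0.12. The fraction term already pairs the arrays by fraction: without it, the unadjusted limma p of Cxcr2 went from 0.0251 to 0.157. No block by replicate could be fitted, since the labels give no replicate numbers. The number of arrays limits every value, as do signals in the range of the negative controls, with positive controls lower than these.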

Other observations

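Among the monocyte and neutrophil markers, Ly6c2, a surface protein of classical monocytes, was higher under anti-CCL3 by 0.70 in fraction m and 0.43 in fraction p on the log2 scale, and S100a8 by 0.51 and 0.26. Neither passed in limma (adjusted p, Benjamini-Hochberg, 0.676 and 0.749), and their mean signals of 5.44 and 5.16 lay below the median of the negative controls, 6.34. Both genes were picked here after their values were seen. Of the 9 neutrophil markers, 2 were higher and 1 lower under anti-CCL3 in both fractions, with a median antibody difference of -0.0004. Of the 5 classical monocyte markers, 3 were higher and 0 lower, with a median of 0.06. Among all named clusters 30.2% were higher and 21.5% lower in both fractions.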
